A study of Mus musculus with 4 samples.

Results

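Nonsense-mediated decay (NMD) degrades mRNAs on which the ribosome stops too early, and 9 genes of this pathway were examined in thymocytes undergoing positive selection. They were the kinase gene *Smg1*, its partners *Smg5* and *Smg6*, the Upf genes *Upf1*, *Upf2*, *Upf3a* and *Upf3b*, and the exon junction genes *Eif4a3* and *Magoh*. The genes were chosen by family name around *Smg1*. *Smg1* was itself chosen because the study names it as changed on these same samples, so its difference between the groups is given as a description without a test. The study called it with DESeq2 and re-estimated p-values, a method other than the fit used here. It also names *Smg1* among the genes with differentially used exons, which gene-level values do not show. All 9 were found among the 24421 genes listed. Levels are in FPKM (fragments per kilobase of transcript, here scaled by a size factor of each sample). All 9 were among the 10776 genes that had at least 1 FPKM in at least 2 samples and were tested. RNA was sequenced from FACS-sorted CD69+CD4+CD8+ (CD69+DP) thymocytes, with 2 control and 2 Foxa1/2cKO samples. All mice were 6 weeks old, on a C57BL/6 background, and homozygous for loxP-flanked alleles of the transcription factor genes *Foxa1* and *Foxa2* (Foxa1 fl/fl Foxa2 fl/fl). Control mice were CD4Cre- littermates and Foxa1/2cKO mice, labelled CoKO in the records, were CD4Cre+. Cre was driven by the *Cd4* promoter, so deletion was restricted to cells that have expressed CD4, and the samples came from separate sorts of different mice.

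Recovered reads per sample ranged from 10396595 to 14482348. *Foxa1* and *Foxa2* were listed at 0 FPKM in all 4 samples, so the deletion could not be checked from these transcripts. All 9 markers of DP thymocytes were detected in every sample, with a summed level of 2712, 2800, 2815 and 3434 FPKM in control 1, control 2, Foxa1/2cKO 1 and Foxa1/2cKO 2. The 3 B-cell markers summed to between 28.6 and 73.0 FPKM and the 4 myeloid markers to 12.3 and 24.2 FPKM in Foxa1/2cKO, with overlap between the groups for both sums. The 5 thymic epithelial markers summed to between 3.18 and 4.18 FPKM, with both Foxa1/2cKO samples above control, and the haemoglobin genes *Hbb-bs* and *Hba-a1* were at 0. The DP sum, too, was higher in both Foxa1/2cKO samples, and *Cd8b1* alone held 592, 613, 668 and 974 FPKM of it in the same order. What is left of the sum without *Cd8b1* overlapped between the groups. Of the 9 DP markers, 2 were higher and 1 was lower in Foxa1/2cKO without overlap, against 18.9% and 17.8% of all genes tested. The part of the marker sums in the results was not tested. Foxa1/2cKO 2 stood apart from the other samples. On the first principal component, which held 65.2% of the variance, it lay at 28.5 and the other 3 samples between -11.0 and -7.42. The difference of *Smg1* is therefore also given without this sample.

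In NMD, the helicase UPF1 binds mRNA at a terminating ribosome and is phosphorylated by the kinase SMG1. UPF2 and UPF3B connect UPF1 to the exon junction complex, which splicing leaves upstream of each exon-exon junction and which is built on the helicase EIF4A3 and the MAGOH-RBM8A pair. Phosphorylated UPF1 recruits the endonuclease SMG6 and the adaptor SMG5, which lead to degradation of the mRNA. In lymphocytes the pathway is known for removing transcripts of non-productively rearranged antigen receptor genes, and it also degrades splice forms that carry a premature stop codon.

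The promoters of 3 genes are printed here from the RefSeq promoter table of GRCm38.p6, the assembly that corresponds to mm10. All 9 genes matched an entry. *Smg1* is shown because its level stood apart between the groups, *Upf2* because it holds as many GC boxes while its level overlapped between the groups, and *Smg5* because it had the same control level as *Smg1* and holds no GC box. Each window covers 200 bases, from 250 to 51 bases before the annotated start, 5′ to 3′ on the strand of the gene. Capitals mark the GC box GGGCGG on either strand.
Smg1 (chr7:118243688-118243887, minus strand): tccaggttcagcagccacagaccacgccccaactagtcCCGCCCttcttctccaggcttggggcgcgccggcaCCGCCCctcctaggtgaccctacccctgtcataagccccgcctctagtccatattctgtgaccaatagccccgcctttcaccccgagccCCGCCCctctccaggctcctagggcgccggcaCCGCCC
Upf2 (chr2:5951219-5951418, plus strand): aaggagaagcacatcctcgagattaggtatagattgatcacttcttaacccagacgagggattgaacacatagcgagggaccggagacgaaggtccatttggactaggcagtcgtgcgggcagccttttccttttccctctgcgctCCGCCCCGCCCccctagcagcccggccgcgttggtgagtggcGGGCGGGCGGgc
Smg5 (chr3:88336010-88336209, plus strand): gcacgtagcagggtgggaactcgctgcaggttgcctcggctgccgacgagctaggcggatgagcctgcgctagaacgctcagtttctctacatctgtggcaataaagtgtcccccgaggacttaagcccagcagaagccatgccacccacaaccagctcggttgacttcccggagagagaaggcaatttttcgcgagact
The GC box was present in 5 of the 9 windows and in 24.6% of all 32851 windows of this length. *Smg1* and *Upf2* each held 4, *Upf1* held 2, and *Eif4a3* and *Upf3b* held 1 each, and copies that overlap were counted separately. At least 4 copies were found in 1.77% of all windows. A forkhead word (TGTTTAC or TGTTTGC or TATTTAC or TATTTGC, either strand) was found in none of the 9 windows and in 9.83% of all windows, which says only that these letters are not in these 200 bases. The printed windows were picked with the levels known, and whether GC boxes have a part in the level of any gene was not tested.

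*Smg1* encodes the phosphatidylinositol 3-kinase-related kinase that phosphorylates UPF1 (chr7:118131308-118243670, minus strand, mm10). Its level was 43.8 and 39.5 FPKM in control 1 and 2 and reached 51.4 and 61.5 FPKM in Foxa1/2cKO 1 and 2. Both Foxa1/2cKO samples lay above both control samples. The mean was 41.7 ± 3.09 FPKM (SD, n = 2) in control and 56.4 ± 7.21 FPKM (SD, n = 2) in Foxa1/2cKO, a ratio of 1.35. On the scale of log2(FPKM + 1), which was used for all fold changes, the difference was 0.43 with a standard error of 0.12. The difference between the groups was larger than the difference of 0.15 between the control samples and of 0.26 between the Foxa1/2cKO samples on the same scale. Without Foxa1/2cKO 2 it was 0.30, and without Foxa1/2cKO 1 it was 0.55. *Smg1* was counted on 10208, 8336, 8623 and 10619 recovered reads in the same order of samples, so that counting error was at most 1.10% of its value in any sample. As these are bulk samples, more RNA per cell and a larger share of cells with the transcript cannot be told apart, for *Smg1* and for every other gene here.

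**Figure D1:**
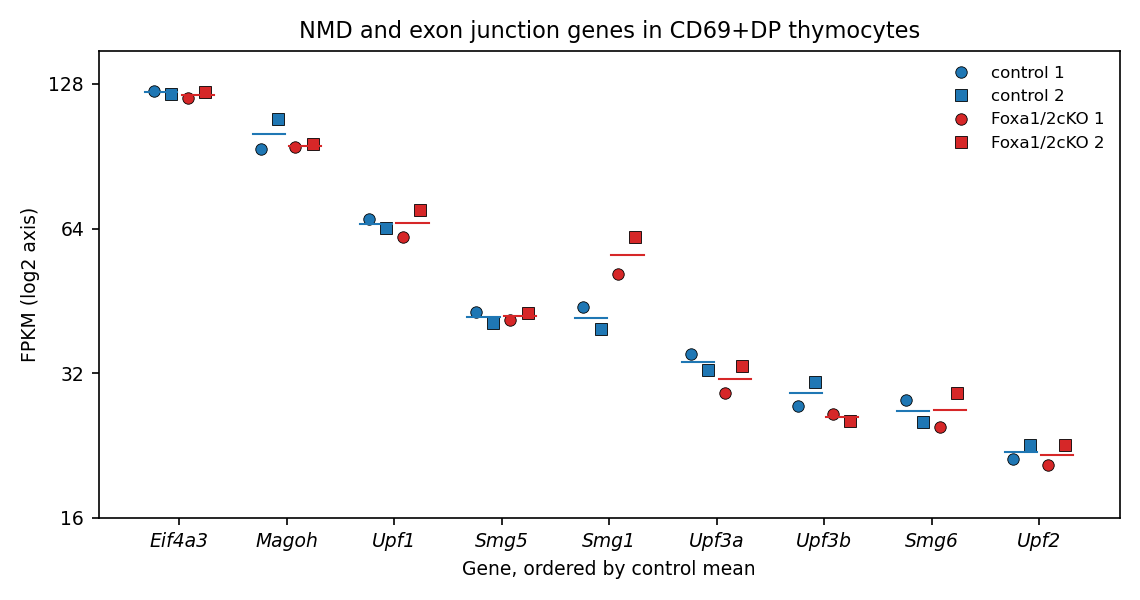
FPKM (log2 axis) of the 9 genes in each of the 4 samples, ordered by the control mean, with control in blue, Foxa1/2cKO in red, and horizontal lines at the group means. *Smg1* is the only gene with both Foxa1/2cKO samples (51.4 and 61.5 FPKM) above both control samples (43.8 and 39.5 FPKM), and *Upf3b* is the only one with both below.

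*Smg5* and *Smg6*, whose proteins act after UPF1 is phosphorylated, were close to equal in the groups. *Smg5* encodes an adaptor that binds phosphorylated UPF1 (chr3:88336260-88362338, plus strand). Its level was 42.9 and 40.7 FPKM in control and 41.4 and 42.7 FPKM in Foxa1/2cKO, and the groups overlapped. The log2 difference was 0.01 ± 0.08 (SE), with a 95% confidence interval of -0.21 to 0.23 and an adjusted p of 0.989 (limma, all genes tested). *Smg6* encodes the endonuclease that cuts the target mRNA near the premature stop codon (chr11:74925823-75164448, plus strand). Its level was 28.2 and 25.3 FPKM in control and 24.7 and 29.1 FPKM in Foxa1/2cKO, again with overlap. The log2 difference was 0.00 ± 0.12 (SE), with an interval of -0.31 to 0.32 and a limma adjusted p of 0.996. Of the 50-base stretches of the *Smg6* transcript, 2.53% also occur in *Srr* or *Gm12333*, which overlap it on the opposite strand, and the strand setting of the gene-level counts is not given in the sources used here.

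The Upf genes likewise did not pass the test. *Upf1*, the central helicase and the substrate of SMG1 (chr8:70331525-70353278, minus strand), was at 66.9 and 64.2 FPKM in control and 61.5 and 70.0 FPKM in Foxa1/2cKO. The Foxa1/2cKO samples lay on either side of the control samples, the log2 difference was 0.00 ± 0.10 (SE), the interval -0.26 to 0.27 and the limma adjusted p 0.997. *Upf2*, the adaptor between UPF1 and UPF3B (chr2:5951469-6056703, plus strand), was at 21.2 and 22.7 FPKM in control and 20.6 and 22.7 FPKM in Foxa1/2cKO. The groups overlapped, with a log2 difference of -0.02 ± 0.10 (SE), an interval of -0.28 to 0.24 and a limma adjusted p of 0.976. The paralogues *Upf3a* and *Upf3b* encode proteins that bind the exon junction complex, of which UPF3B is the more active in decay. *Upf3a* (chr8:13785615-13799193, plus strand) was at 35.1 and 32.5 FPKM in control and 29.1 and 33.1 FPKM in Foxa1/2cKO, with overlap, a log2 difference of -0.12 ± 0.11 (SE), an interval of -0.40 to 0.16 and a limma adjusted p of 0.867. *Upf3b* (chrX:37091678-37110322, minus strand) was at 27.4 and 30.7 FPKM in control and 26.4 and 25.5 FPKM in Foxa1/2cKO. Here both Foxa1/2cKO samples lay below both control samples, but the log2 difference of -0.16 ± 0.10 (SE) did not pass the test (interval -0.41 to 0.10, limma adjusted p = 0.863). The gap between the groups was no larger than that between the control samples, as both rounded to 0.16 on the log2 scale. *Upf3a* and *Upf3b* had few reads (440 to 913 per sample), with a counting error of up to 4.77% for *Upf3a* and 4.02% for *Upf3b*.

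The exon junction genes were the most abundant of the 9. *Eif4a3*, the helicase that clamps the complex onto mRNA (chr11:119288363-119300089, minus strand), was at 123.6 and 122.0 FPKM in control and 119.6 and 123.0 FPKM in Foxa1/2cKO. The log2 difference was -0.02 ± 0.08 (SE), with an interval of -0.23 to 0.19 and a limma adjusted p of 0.974. Of the 50-base stretches of *Eif4a3*, 24.4% are shared with the annotated genes *Gm5576*, *Gm5580* or *Gm8994*, so its level is uncertain to the extent that reads were split among them. *Magoh*, which with RBM8A locks EIF4A3 onto the mRNA (chr4:107879755-107887424, plus strand), was at 93.6 and 107.9 FPKM in control and 94.4 and 96.0 FPKM in Foxa1/2cKO. Both Foxa1/2cKO values lay between the control values, and the log2 difference was -0.08 ± 0.10 (SE), with an interval of -0.35 to 0.19 and a limma adjusted p of 0.896.

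None of the 9 genes passed an adjusted p of 0.05 in limma, and limma-voom on recovered reads also called 0. This includes *Smg1*, whose difference remains a description. Over all genes tested, 0.00928% were called, which is 1 of 10776, and that gene was lower in Foxa1/2cKO. Of the 8 genes other than *Smg1*, 0 had an unadjusted p under 0.05, against 4.55% of all genes tested. Groups that did not overlap in either direction were found for 2 of the 9 genes, against 36.7% of all genes, with 1 higher in Foxa1/2cKO (*Smg1*), against 18.9%, and 1 lower (*Upf3b*), against 17.8%. The higher one is the gene chosen for its difference. The count of 2 was 6 under upper-quartile scaling, 4 under scaling to all recovered reads, and 4 to 7 with a sample left out. The 2 scalings moved the median of all genes to -0.06 and -0.03. The share of all genes without overlap was not counted under these settings, so these counts are not read as a result about the 9 genes. The median log2 difference was -0.02 over the 9 genes, -0.02 over the 8 without *Smg1*, and 0.01 over all genes tested. The 95% intervals of the 8 other genes reached at most from 0.751-fold to 1.25-fold, so that changes beyond these bounds lay outside the interval of every one of them. Of the 9 genes 4 had a higher mean in Foxa1/2cKO, but for *Smg5*, *Smg6* and *Upf1* this direction turned under both other scalings of the samples and under the length correction.

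**Figure D2:**
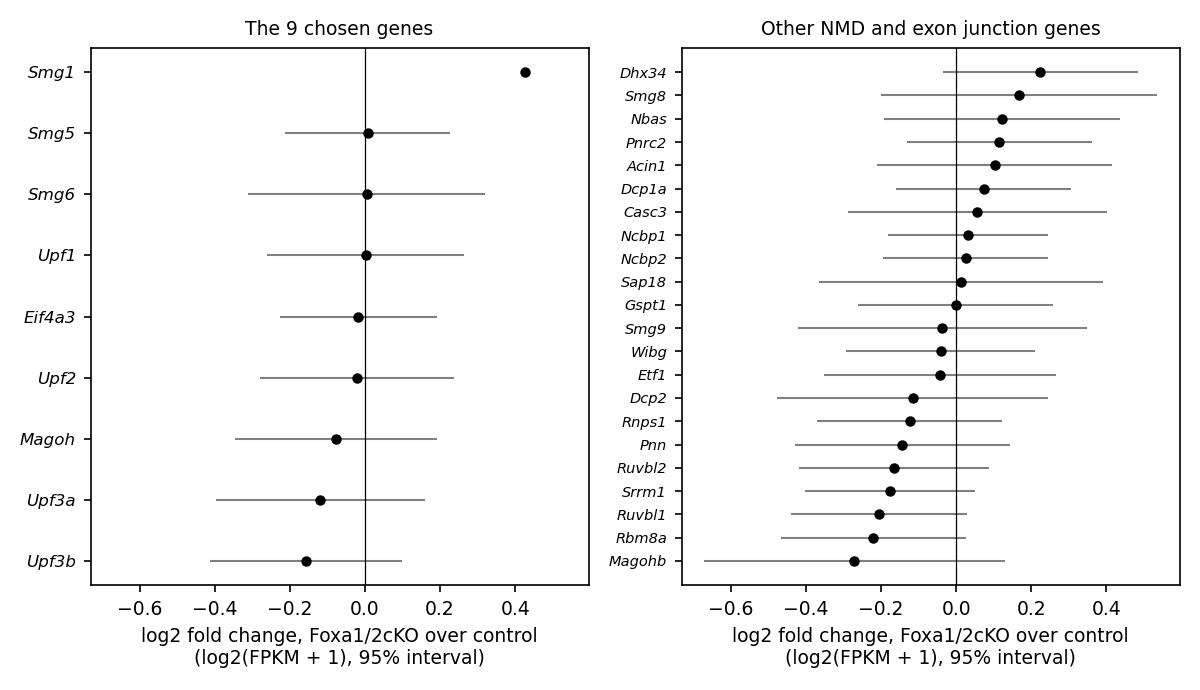
Log2 fold change of Foxa1/2cKO over control with its 95% interval (none for *Smg1*, which was chosen for its difference), on the scale of log2(FPKM + 1), for the 9 chosen genes (left) and for 22 other NMD and exon junction genes (right), with n = 2 per group. *Smg1* is at 0.43, and every interval drawn includes 0.

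The order of the levels, which FPKM allows because it is per length, was nearly the same in both groups. In control it ran *Eif4a3*, *Magoh*, *Upf1*, *Smg5*, *Smg1*, *Upf3a*, *Upf3b*, *Smg6* and *Upf2*, from a mean of 122.8 FPKM down to 22.0 FPKM. Neighbours in this order did not overlap, except *Smg5* and *Smg1* (41.8 ± 1.56 and 41.7 ± 3.09 FPKM, SD, n = 2) and *Upf3b* and *Smg6* (29.1 ± 2.37 and 26.7 ± 2.04 FPKM). In Foxa1/2cKO, *Smg1* stood directly above *Smg5* without overlap (56.4 ± 7.21 against 42.0 ± 0.936 FPKM) and overlapping with *Upf1* (65.7 ± 6.04 FPKM). *Smg6* and *Upf3b* exchanged places but overlapped in both groups.

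Ratios within a sample do not depend on how the samples were scaled. The ratio of *Smg1* to the median of the other 8 genes was 1.12 and 1.08 in the control samples, against 1.46 and 1.62 in the Foxa1/2cKO samples. Since *Smg1* was chosen for its higher level and the other genes differed little, these ratios describe the same difference on another scale and add no support to it. Its ratio to its substrate *Upf1* was 0.655 and 0.615 in control and 0.836 and 0.879 in Foxa1/2cKO. Its ratio to *Smg5* was 1.02 and 0.970 in control and 1.24 and 1.44 in Foxa1/2cKO. Taken singly, the ratios to the 8 genes followed the same order of groups. The lowest Foxa1/2cKO ratio was between 1.16 times (*Magoh*) and 1.41 times (*Upf3a*) the highest control ratio. *Smg1* took 37.7 and 35.7% of all reads on the 9 genes in control, and 43.1 and 45.5% in Foxa1/2cKO. The summed level of the other 8 genes was 439 and 446 FPKM in control and 418 and 442 FPKM in Foxa1/2cKO.

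Of the ratios that leave out *Smg1*, 4 were taken between related members, and each of these overlapped between the groups. The other pairs of the chosen genes were not examined. *Magoh* over *Eif4a3*, partners in the exon junction core, was 0.758 and 0.884 in control and 0.789 and 0.781 in Foxa1/2cKO. *Upf3a* over *Upf3b* was 1.28 and 1.06 in control and 1.10 and 1.30 in Foxa1/2cKO. *Upf2* over *Upf1* was 0.317 and 0.354 in control and 0.335 and 0.325 in Foxa1/2cKO. *Smg5* over *Smg6* was 1.52 and 1.61 in control and 1.68 and 1.47 in Foxa1/2cKO. In each of these 4 ratios the group means differed by less than the control samples did.

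**Figure D3:**
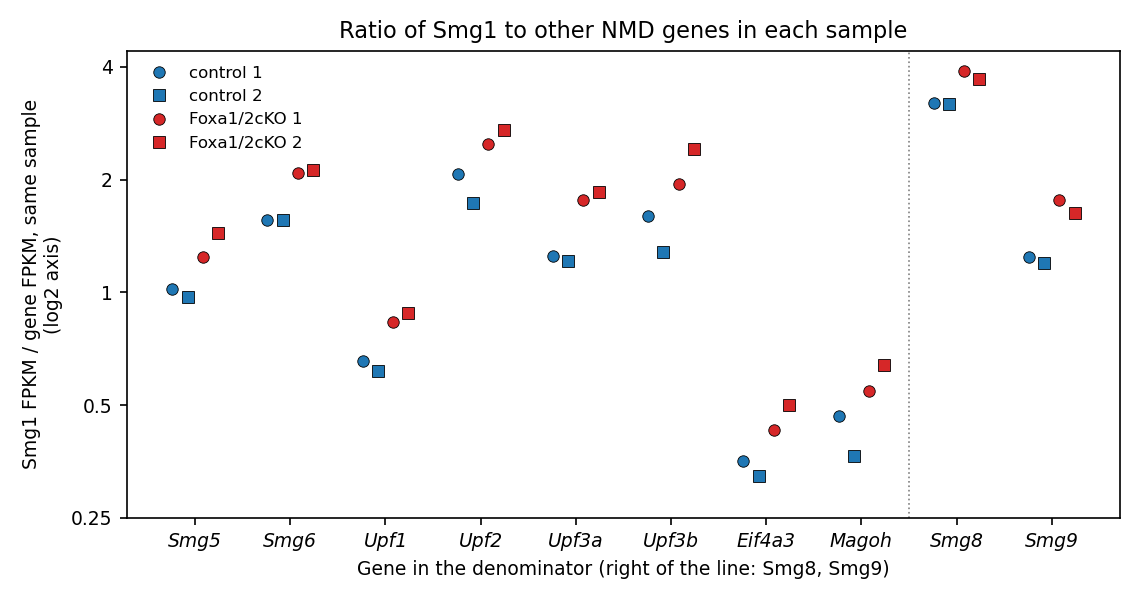
Ratio of *Smg1* FPKM to the FPKM of another NMD gene in the same sample (log2 axis), for the 8 other chosen genes and, right of the dotted line, for *Smg8* and *Smg9*, with control in blue and Foxa1/2cKO in red. For every gene on the axis both red points lie above both blue points, as for *Upf1*, with 0.655 and 0.615 in control and 0.836 and 0.879 in Foxa1/2cKO.

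SMG8 and SMG9 form a complex with SMG1 and restrain its kinase activity. These genes are named here after their values were seen. *Smg8* was at 13.7 and 12.4 FPKM in control and 13.2 and 16.6 FPKM in Foxa1/2cKO, with a log2 difference of 0.17 ± 0.14 (SE). *Smg9* was at 35.3 and 33.0 FPKM in control and 29.2 and 37.9 FPKM in Foxa1/2cKO, with a log2 difference of -0.04 ± 0.15 (SE). The groups overlapped for both. *Smg1* over *Smg8* was 3.20 and 3.18 in control and 3.90 and 3.71 in Foxa1/2cKO, and *Smg1* over *Smg9* was 1.24 and 1.20 in control and 1.76 and 1.62 in Foxa1/2cKO, without overlap.

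Among 23 other genes of NMD and the exon junction complex, 22 were tested and 0 passed the adjusted limma test (0 at an unadjusted p under 0.05). The groups did not overlap for 3 genes that were higher and 7 that were lower in Foxa1/2cKO, against 18.9% and 17.8% of all genes tested. The median log2 difference was -0.02, with a range of -0.27 to 0.22, against 0.43 for *Smg1*. The 3 non-overlapping genes of largest size were *Magohb*, *Dhx34* and *Rbm8a*. *Magohb*, the near-identical copy of *Magoh*, was at 11.7 and 9.62 FPKM in control and 9.55 and 7.77 FPKM in Foxa1/2cKO (log2 difference -0.27 ± 0.15, SE), and 55.7% of its 50-base stretches are shared with *Gm44958*, which overlaps it on the same strand. *Dhx34*, a helicase that brings UPF1 to SMG1, was at 15.1 and 14.2 FPKM in control and 16.5 and 18.1 FPKM in Foxa1/2cKO (log2 difference 0.22 ± 0.10, SE). It was the only gene of the 3 that lay in the same direction as *Smg1*. *Rbm8a*, the partner of *Magoh*, was at 34.6 FPKM in both control samples and at 31.2 and 28.0 FPKM in Foxa1/2cKO (log2 difference -0.22 ± 0.09, SE). *Casc3*, the fourth core gene of the exon junction complex, was at 45.7 and 41.8 FPKM in control and 40.9 and 50.5 FPKM in Foxa1/2cKO, with overlap. *Magoh* over *Rbm8a* was 2.71 and 3.12 in control and 3.03 and 3.43 in Foxa1/2cKO, so the ratio of these partners also overlapped. Without Foxa1/2cKO 1, *Dhx34* and *Rbm8a* passed the adjusted threshold in a fit that called 2559 genes in all, and *Magohb* was at -0.40. Without Foxa1/2cKO 2 the differences were 0.16 for *Dhx34*, -0.14 for *Rbm8a* and -0.14 for *Magohb*, and *Magohb* was also at -0.14 without control 1.

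SMG1 belongs to a family of large kinases that also includes ATM, ATR, DNA-PK and mTOR, and that are folded with the help of TELO2, TTI1 and TTI2. The list left out *Smg1* and held *Atm*, *Atr*, *Prkdc*, *Mtor*, *Trrap*, *Telo2*, *Tti1* and *Tti2*. All 8 genes of this list were tested and 0 passed the limma test (0 at an unadjusted p under 0.05). The groups did not overlap for 3 genes, all higher in Foxa1/2cKO, against 18.9% of all genes tested, and the median log2 difference was 0.06. These 3 genes, *Atr*, *Prkdc* and *Mtor*, measured 8074, 12674 and 8595 bases. The share was 34.4% among genes of 6000 to 10000 bases and 47.0% among genes of at least 10000 bases. Under the length correction they were at 0.23 (*Atr*), 0.08 (*Prkdc*) and 0.02 (*Mtor*). The part of length in their differences was not tested. *Atr*, a kinase of the response to stalled replication, was at 6.39 and 7.11 FPKM in control and 9.25 and 7.78 FPKM in Foxa1/2cKO (log2 difference 0.29 ± 0.13, SE). *Prkdc*, the catalytic subunit of DNA-PK, needed for joining antigen receptor gene segments, was at 6.76 FPKM in both control samples and at 8.57 and 7.09 FPKM in Foxa1/2cKO (0.18 ± 0.13, SE). *Mtor*, a kinase of nutrient signalling, was at 15.1 and 14.5 FPKM in control and 15.4 and 16.2 FPKM in Foxa1/2cKO (0.09 ± 0.09, SE). For *Atr* and *Prkdc* the higher Foxa1/2cKO value was in Foxa1/2cKO 1, whereas for *Smg1* it was in Foxa1/2cKO 2. Without Foxa1/2cKO 1, *Prkdc* was at 0.06 and *Atr* at 0.18, and without Foxa1/2cKO 2 at 0.30 and 0.40.

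Transcripts that NMD is known to degrade were examined as well. Of 16 such transcripts, 10 were tested, and *Atf3*, *Trib3*, *Asns*, *Chac1*, *Cdkn1a* and *Upp1* did not pass the filter on low values. None of the 10 passed the limma test (0 at an unadjusted p under 0.05), 4 had a higher mean in Foxa1/2cKO, and the median log2 difference was -0.03. The groups did not overlap for 2, both lower in Foxa1/2cKO, against 17.8% of all genes tested. *Snhg12*, a host gene of small nucleolar RNAs, was at 33.6 and 39.4 FPKM in control and 31.0 and 26.8 FPKM in Foxa1/2cKO (log2 difference -0.33 ± 0.13, SE). *Tbl2* was at 8.71 and 9.34 FPKM in control and 8.33 and 6.82 FPKM in Foxa1/2cKO (-0.23 ± 0.13, SE). Both passed the adjusted threshold without Foxa1/2cKO 1, in the fit of 2559 calls, but without Foxa1/2cKO 2 *Snhg12* was at -0.22 (limma adjusted p = 0.331) and *Tbl2* at -0.10 (limma adjusted p = 0.627). The widely used NMD target *Gas5*, named after its values were seen, was at 95.7 and 97.0 FPKM in control and 102.2 and 86.4 FPKM in Foxa1/2cKO, on either side of the control values. *Gadd45a*, also named after its values were seen, was at 14.8 and 14.2 FPKM in control and 12.6 and 23.1 FPKM in Foxa1/2cKO, with overlap.

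Genes with a known poison exon, whose inclusion brings in a stop codon and exposes the transcript to NMD, were also examined. All 13 were tested and 0 passed (0 at an unadjusted p under 0.05), with 1 higher and 4 lower without overlap (18.9% and 17.8% of all genes tested) and a median log2 difference of -0.07. *Tra2a*, a splicing activator, was at 77.7 and 80.1 FPKM in control and 56.5 and 71.8 FPKM in Foxa1/2cKO (log2 difference -0.30 ± 0.14, SE). *Srsf4* was at 92.7 and 93.6 FPKM in control and 80.6 and 83.9 FPKM in Foxa1/2cKO (-0.18 ± 0.08, SE). *Srsf1*, like *Srsf4* a serine/arginine-rich splicing factor, was at 94.7 and 99.5 FPKM in control and 110.0 and 101.2 FPKM in Foxa1/2cKO (0.12 ± 0.09, SE). Without Foxa1/2cKO 1, *Tra2a* was at -0.13 and *Srsf1* at 0.06, and without Foxa1/2cKO 2 at -0.47 and 0.18. A gene-level FPKM does not separate the form with the poison exon from the coding form.

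The 5 tested genes whose pattern over the 4 samples was most like that of *Smg1* were *Gm14085*, *Ikzf2*, *Cdk17*, *Vps13c* and *Gk5*, with a Euclidean distance of 0.0326 to 0.0517 between centred log2(FPKM + 1) values. *Ikzf2*, which encodes the transcription factor Helios, was at 26.6 and 24.2 FPKM in control and 30.6 and 38.2 FPKM in Foxa1/2cKO. *Cdk17*, a cyclin-dependent kinase gene, was at 65.1 and 59.0 FPKM in control and 79.4 and 93.9 FPKM in Foxa1/2cKO. *Vps13c*, which encodes a lipid transfer protein, was at 12.9 and 11.4 FPKM in control and 15.0 and 17.5 FPKM in Foxa1/2cKO. Their differences between the groups follow from this choice and are given no test. None of the other 8 NMD genes was near *Smg1* in this measure. The closest was *Smg6*, at a distance of 0.422 and rank 3441 of 10774 genes, and the farthest was *Upf3b*, at 0.659 and rank 8129.

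*Smg1* was by far the longest of the 9 transcripts, at 15553 bases by the length used in its FPKM, whereas the others measured 692 to 5799 bases. Only 22 of the 10776 genes tested were longer. Log2 differences between the groups moved with transcript length over all genes. The median was -0.02 for 1107 genes under 1000 bases, 0.02 for 1888 genes of 4000 to 6000 bases, 0.06 for 936 genes of 6000 to 10000 bases, and 0.11 for 168 genes of at least 10000 bases. For this last class the median was 0.10 in Foxa1/2cKO 1 and 0.11 in Foxa1/2cKO 2, each against the control mean. Both Foxa1/2cKO samples lay above both control samples for 47.0% of the genes in this class, against 18.9% of all genes and 12.8% of those under 1000 bases. A log2 difference at least as large as that of *Smg1* was found in 5 of the 168 longest genes (2.98%), in 64 of the 1107 genes under 1000 bases (5.78%) and in 167 of all 10776 (1.55%). After the trend with length was taken out, the difference of *Smg1* was 0.31 in place of 0.43. The part of transcript length in the higher level of *Smg1* was not tested beyond this.

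**Figure D4:**
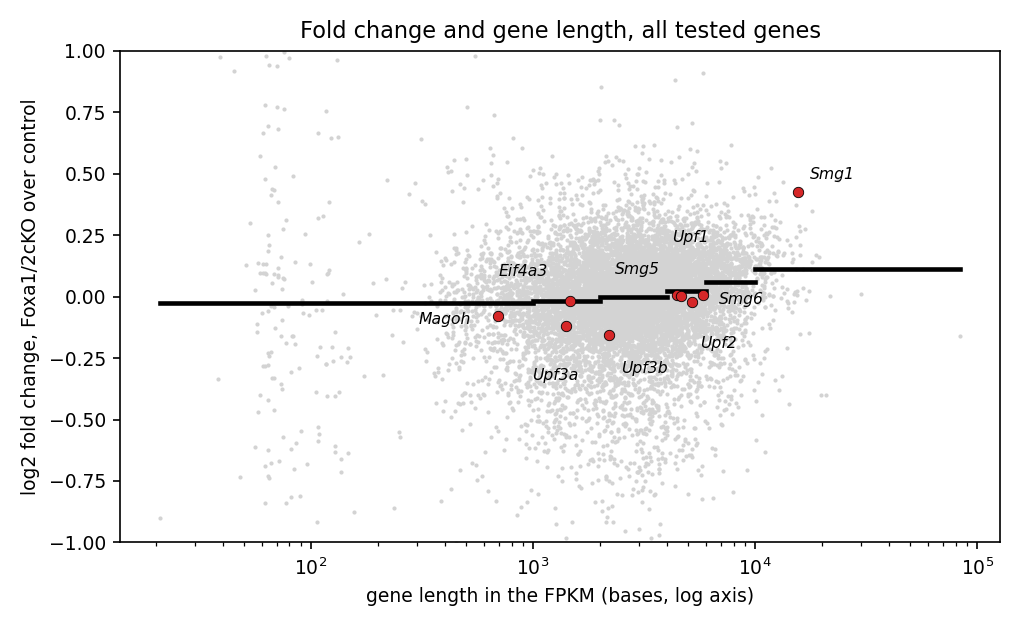
Log2 fold change of Foxa1/2cKO over control against the transcript length in the FPKM (log axis, bases) for the tested genes (grey), with black lines at the median of each length class and the 9 chosen genes in red (49 genes beyond -1 or 1 are not drawn). The class median goes from -0.02 below 1000 bases to 0.11 from 10000 bases on, and *Smg1*, at 15553 bases and 0.43, lies to the right of and above the other 8.

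In the FPKM as deposited, Foxa1/2cKO 2 was the higher of the Foxa1/2cKO samples for 8 of the 9 genes, all but *Upf3b*. The gap between these samples was small on the log2 scale for *Smg5* (0.044), *Eif4a3* (0.040) and *Magoh* (0.025). Over all genes tested, the median log2 difference to the control mean was also higher in Foxa1/2cKO 2 (0.022) than in Foxa1/2cKO 1 (-0.0088). The share of all genes with this order was not counted, and the order was not examined under other scalings. In *Smg6* and *Upf1*, too, Foxa1/2cKO 2 held the highest value of the 4 samples, but there Foxa1/2cKO 1 held the lowest. The same sample had the lowest level of *Ptcra*, the pre-TCR chain of earlier thymocytes, at 3.23 FPKM against 7.44 in Foxa1/2cKO 1 and 11.2 and 11.9 in control, and the highest level of *Cd8b1*, at 974 FPKM against 668 in Foxa1/2cKO 1 and 592 and 613 in control. *Ptcra* and *Cd8b1* are only 2 of the 9 DP markers, and the levels of the others are not given singly here. Of the 9, 2 were higher and 1 was lower in Foxa1/2cKO without overlap, against 18.9% and 17.8% of all genes tested. Whether a difference in the maturity of the sorted cells has a part in the level of *Smg1* was not tested.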

How the data were processed

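The FPKM values as deposited by the authors cover 24421 genes in 4 samples. The authors aligned reads to mm10 with RefSeq genes on BaseSpace and used HTSeq (union mode) for counting. The submitters' notes also name TopHat, Picard and DESeq2. The tool that made the FPKM is not given in the sources used here. The depth that each sample's FPKM was divided by followed its median-of-ratios size factor (0.867 to 1.20). Whole reads were recovered for 100% of the 16069 genes above 0, within 0.002 reads. limma 3.58.1 in R 4.3.3 was run on log2(FPKM + 1) with a mean-variance trend, for genes at 1 FPKM or more in at least 2 samples, with Benjamini-Hochberg adjustment over all 10776 genes (2 residual and 2.69 prior degrees of freedom). Fold changes on this scale understate those of low genes. The pipeline was tested on simulated data. Samples came from different mice, but whether a sample pools mice is not clear from the methods, so SDs and p-values measure the spread between sorted samples. Counting errors cover counting only.

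The members and lists were chosen with earlier results of these data known. Named are the 9 members, from each list the non-overlapping genes with the largest differences (at most 3), the 5 genes nearest to *Smg1* and the other exon junction core genes. The result of 1 gene is left out of the lists and not reported here. *Pym1*, *Zfas1* and *Snhg15* are listed under older symbols. Alternatives were a pseudocount of 0.1, no filter, upper-quartile scaling, scaling to all recovered reads, a loess length correction, a replicate block with and without it, limma-voom, and leaving out each sample.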

Additional observations from a re-analysis of the deposited data

How the results depend on the processing

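The log2 difference of *Smg1* stayed positive under every alternative tried, from 0.30 to 0.55 when single samples were left out and from 0.31 to 0.43 otherwise. None of the 8 genes other than *Smg1* passed the adjusted threshold under any alternative that kept all 4 samples. The fit without Foxa1/2cKO 1 called 2559 of 10776 genes, against 19 without Foxa1/2cKO 2. There the group left with 1 sample is assumed to vary like the other.

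The number of genes with a higher Foxa1/2cKO mean was 4, and it was 1 under upper-quartile scaling and under scaling to all recovered reads, 2 under the length correction, and 1 to 6 when samples were left out. Non-overlapping groups were 2, with 6 under upper-quartile scaling and 4 under scaling to all recovered reads. With a sample left out they were 4 to 7, where fewer samples overlap less easily. The share of all genes without overlap was not counted under these settings. The median of the 9 genes was -0.02, -0.086 under upper-quartile scaling, -0.053 under scaling to all recovered reads, and -0.09 to 0.03 when samples were left out. Upper-quartile scaling moved the median of all genes to -0.06 and scaling to all reads to -0.03, from 0.01. The share of higher genes among those with an unadjusted p under 0.05 was 52.7%, and 24.2% and 41.0% under these scalings.

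Signs turned for genes near 0. Under upper-quartile scaling, scaling to all reads and the length correction, *Smg5* was at -0.060, -0.027 and -0.017, *Smg6* at -0.062, -0.029 and -0.036, and *Upf1* at -0.066, -0.033 and -0.025. *Eif4a3* was at 0.0033 under the length correction. With samples left out, *Smg5* ranged from -0.030 to 0.045, *Smg6* from -0.11 to 0.12, *Upf1* from -0.091 to 0.094, *Upf2* from -0.090 to 0.046, *Eif4a3* from -0.038 to 0.0018 and *Magoh* from -0.18 to 0.023. The cause of these moves was not tested.

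The replicate block left *Smg1* at 0.43 and called 0 of the 8 other genes. With the replicate block and the length correction together, 2 genes had a higher mean, *Smg1* was at 0.31, *Smg5* at -0.017, *Smg6* at -0.036, *Upf1* at -0.025 and *Eif4a3* at 0.0033. Deviations of same-numbered samples correlated at -0.0587 over 10776 genes. As there are only 2 pairs, this cannot tell whether same-numbered samples belong together. The main fit did not pair them. With 2 samples per group, the intervals of the 8 other genes leave room for small changes.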
